A study of Mus musculus with 6 samples.

Results

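The genes described here encode the classical axon guidance ligands and their receptors: semaphorins with plexins and neuropilins, Slits with Robo receptors, and ephrins with Eph receptors. Members were chosen by name alone, as every row whose Ensembl identifier maps to a mouse Sema, Plxn, Slit, Robo, Efna, Efnb, Epha or Ephb symbol, plus Nrp1 and Nrp2. Netrins and Unc5 receptors were left out. Of 13965 rows, 55 were members, made up of 20 semaphorins, 8 plexins, 2 neuropilins, 3 Slits, 4 Robos, 8 ephrins and 10 Eph receptors. The annotation lists 60 genes with these names. Epha5, Epha6, Epha8, Epha10 and Plxnb3 matched no row and were not analysed here. Nrp1 shares its row with the microRNA gene Mir1903, and Efna5 shares its row with 1 other identifier, so those values cannot be split between genes.

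RNA was sequenced from kidneys of mouse embryos at embryonic day 16, with 3 control and 3 mutant libraries. Controls were labelled wild type (WT) with 1 floxed allele of the microRNA cluster, miR-17~92 flx/+. Mutants carried Six2-TGC, a transgene that expresses Cre recombinase under Six2 regulatory sequence in nephron progenitors, together with miR-17~92 flx/flx. Each of 3 litters gave 1 control and 1 mutant. The control label names no Cre transgene, so deletion of the cluster and presence of the transgene cannot be told apart. All groups carry at least 1 floxed allele, and the labels do not give sex or the number of kidneys in a library. Cre acts in progenitors and their descendants, whereas ureteric bud, stroma, vessels and nerves also contribute RNA to a kidney library.

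Guidance cues were named for steering growing axons, where a ligand on or from one cell makes another cell's leading edge turn away or advance by changing its cytoskeleton. Class 3 semaphorins are secreted and mostly act through a neuropilin that binds the ligand and a plexin that signals, while many semaphorins of the other classes bind plexins directly. Slits are large secreted ligands of Robo receptors, and in the early kidney Slit2 and Robo2 help to restrict where the ureteric bud forms. Ephrins and Eph receptors both sit in cell membranes and signal on contact, and in vessels ephrin-B2 and EphB4 mark arteries and veins.

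The floxed cluster encodes microRNAs of 4 seed families. The seed, bases 2 to 8 of a mature microRNA, pairs with target transcripts, and it is shown here in capitals because the match counts given further on rest on it. The sequences are from RefSeq on GRCm38.p6, where the cluster lies on the plus strand of chromosome 14.
mmu-miR-17-5p: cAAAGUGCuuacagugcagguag
mmu-miR-20a-5p: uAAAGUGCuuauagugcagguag
mmu-miR-18a-5p: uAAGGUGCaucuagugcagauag
mmu-miR-19a-3p: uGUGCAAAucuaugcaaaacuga
mmu-miR-19b-3p: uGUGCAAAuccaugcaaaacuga
mmu-miR-92a-3p: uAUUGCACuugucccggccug
The first pair shares one seed and the miR-19 pair shares another. Mature microRNAs were not measured in these libraries. The row of the cluster's host transcript, Mir17hg, joins 7 identifiers. Its level was 34.1, 36.4 and 23.0 CPM in controls of litters 1, 2 and 3 and 53.6, 39.8 and 44.6 CPM in mutants, a log2 difference of 0.57 with an adjusted p of 0.0292 by limma with litter as a block and 0.222 without it. The fragment counted in this row is not known, so it does not check the deletion.

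Values are CPM, a gene's reads scaled by the library total. Totals were 43804667 to 54913325 reads, so 1 CPM stood for 43.8 to 54.9 reads.

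Guidance genes that changed were mostly higher in mutant kidneys. Of 55 members, 18 rose, 2 fell and 35 did not pass the test. The rises were modest, from 1.12-fold for Plxnd1 to 1.48-fold for Slit2, and they took in both neuropilins, Slit1 and Slit2, 4 of 7 class 3 semaphorins, 3 of 8 plexins and 2 of 10 Eph receptors. The 2 genes that fell were Robo2 and Sema4g. No ephrin passed the test. Differences were fitted with limma on log2(CPM + 0.5) with litter as a block, and a row was called at a Benjamini-Hochberg adjusted p below 0.05 over all 13766 rows that reached 1 CPM in 3 or more of the libraries. All 55 members passed that filter. Over all rows tested, 7.93% were called higher and 3.51% lower, against 32.7% and 3.64% of the members. The median log2 difference, mutant minus control, was 0.16 over members and 0.01 over all rows. By litter, the members' median was 0.12, 0.19 and 0.22. The sign was positive for 46 members and negative for 9. In all 3 litters the mutant was higher for 36 members and lower for 3, against 28.3% and 22.2% of all rows. The 3 mutant libraries lay above all 3 controls for 13 members and below them for 2, against 10.2% and 7.12% of all rows.

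Pairing by litter decided most of these calls. With genotype alone in the limma fit, Slit2 was the only member called, at an adjusted p of 0.0152. The other 19 then had adjusted p values of 0.103 to 0.621, and 0.363% of all rows were called higher and 0.196% lower. Many calls were also lost without litter 1, although the members' median difference was smallest in that litter (0.12, against 0.19 and 0.22). With both libraries of litter 1 left out, 7 members were called higher and 0 lower, while 1.94% of all rows were called higher and 0.501% lower. Without litter 2 the members' counts were 14 and 1 (6.96% and 3.3% of all rows), and without litter 3 they were 19 and 2 (10.8% and 5.91%). Other library scalings mattered less, with 17 higher and 2 lower under TMM (6.73% and 4.08% of all rows) and 15 and 2 under median ratios (6.6% and 4.31%). Slit2, Slit1, Sema5a, Sema3c, Sema3d, Sema3a and Plxna1 were called whichever litter was left out.

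**Figure D1:**
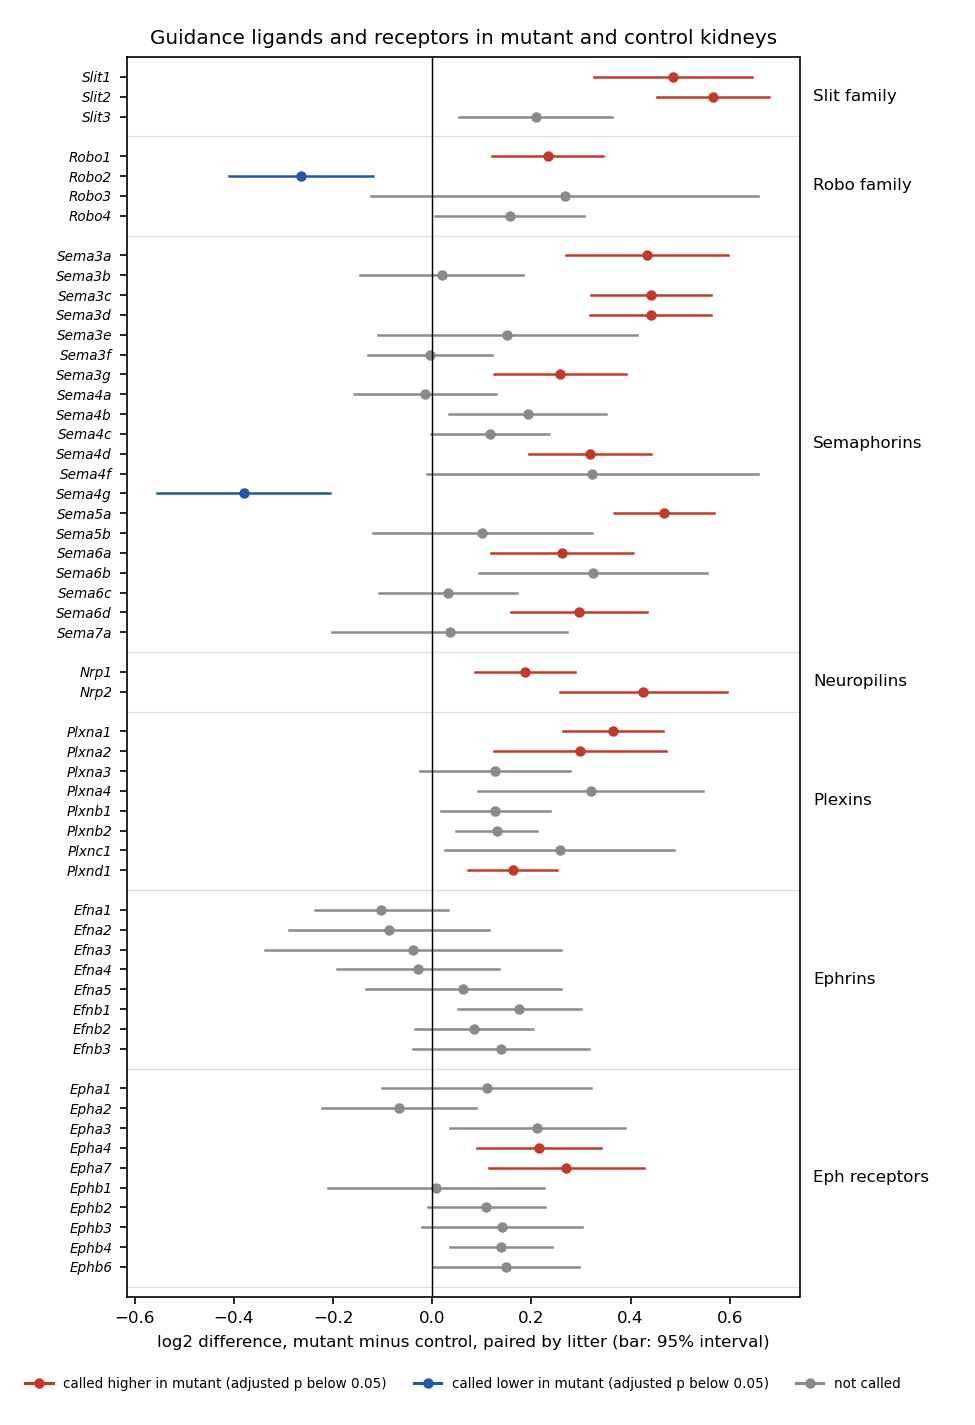
Log2 difference between mutant and control kidneys for each of the 55 members, paired by litter and grouped by family; points are estimates and bars 95% intervals from the limma fit. Red marks the 18 members called higher, blue the 2 called lower (Robo2 and Sema4g) and grey the 35 not called; all 8 ephrins are grey.

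Markers of kidney cell types were detected in every library, and several of their sums moved with genotype. The 15 nephron progenitor markers summed to 1230 to 1265 CPM in controls and 954 to 1012 CPM in mutants. Of them, 8 were called lower, 0 higher and 7 in neither direction. This list, like the others, was chosen with earlier results of these data known. It holds Cited1, Meox1, Meox2, Traf1 and Capn6, with log2 differences of -2.47 to -1.07. Its count and sum are therefore not independent of those results. Capn6 alone went from 286 to 136 CPM on average, and the other 14 summed to 941 to 974 CPM in controls and 810.4 to 879.8 CPM in mutants. Stromal markers summed to 4026 to 4318 CPM in controls and 4471 to 5225 CPM in mutants, with 5 of 17 called higher and 1 lower. Col3a1 and Col1a1 carried much of that sum, at means of 1637 and 741 CPM in controls and 1927 and 888 CPM in mutants. Neither was called (limma adjusted p = 0.0928 and 0.0518). Endothelial markers summed to 1125 to 1136 CPM in controls and 1250 to 1278 CPM in mutants, with 5 of 11 called higher and 0 lower. Neuron and Schwann cell markers had rows for 8 of 19 genes, none of them at 0 in every library. They summed to 62.3 to 69.6 CPM in controls and 53.1 to 54.8 CPM in mutants, and 3 were called lower (Elavl4, Nefl and Ngfr). Ngfr, from a mean of 23.5 to 14.9 CPM, and Elavl4, from 8.17 to 3.07 CPM, carried the fall in the sum. Nefl was low, at means of 1.31 and 0.568 CPM. Of the 8 estimates 4 were positive and 4 negative, with a median log2 difference of -0.005. Of the other lists, podocyte markers gave 2 higher and 1 lower calls of 12, early nephron markers 4 and 1 of 13, proximal tubule markers 6 and 0 of 9, ureteric markers 7 and 0 of 13, and leukocyte markers 1 and 0 of 11. Of all rows, 7.93% were called higher and 3.51% lower. Without the block, 0 proximal tubule, 0 ureteric and 0 endothelial markers were called higher, and after the length and GC correction with the block 3, 5 and 2 were. In whole kidneys, fewer cells of a type and less RNA per cell cannot be told apart, and the part of cell composition in the results that follow was not tested.

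Slit1 and Slit2 rose, while of their receptors Robo1 rose and Robo2 fell. Slit2 (ENSMUSG00000031558), the Slit known to restrict ureteric bud outgrowth, was 146, 135 and 129 CPM in the controls of litters 1, 2 and 3 and 210, 190 and 208 CPM in the mutants. Every mutant lay above every control. The means were 137 ± 8.39 and 202 ± 11.1 CPM (SD, n = 3), a log2 difference of 0.57 (SE 0.05, 95% interval 0.45 to 0.68; limma adjusted p = 0.00132), which was the largest among the members. Slit1 was lower in level, at 26.3, 34.2 and 24.3 CPM in controls and 36.4, 44.4 and 37.8 CPM in mutants, again with no overlap. Its log2 difference was 0.49 (SE 0.07; limma adjusted p = 0.00656). Slit3 was 27.0, 30.4 and 41.9 CPM in controls and 29.7, 38.7 and 46.4 CPM in mutants. The mutant was higher in each litter, but the groups overlapped and the log2 difference of 0.21 did not pass (limma adjusted p = 0.0814).

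Robo2 (ENSMUSG00000052516), the Robo receptor that nephrogenic mesenchyme uses to receive Slit2, was 172, 158 and 144 CPM in controls and 140, 118 and 137 CPM in mutants. Its groups did not overlap. The means were 158 ± 13.7 and 132 ± 11.4 CPM (SD, n = 3), a log2 difference of -0.26 (SE 0.06, 95% interval -0.41 to -0.12; limma adjusted p = 0.0346). This call was lost without litter 1 (adjusted p = 0.166) and without litter 2 (adjusted p = 0.0621). Robo1, its close relative, went the other way, from 101, 93.6 and 94.8 CPM to 114, 108 and 119 CPM. Its groups were also separate, with a log2 difference of 0.23 (SE 0.05; limma adjusted p = 0.0231), and the call was lost without litter 1 (adjusted p = 0.0974). Robo4, the Robo of endothelium, was 37.6, 43.6 and 35.6 CPM in controls and 38.1, 51.5 and 41.5 CPM in mutants (limma adjusted p = 0.157). Robo3, the least abundant member per kilobase, was at 1.05 to 1.93 CPM, which is 47 to 106 reads, and was not called (log2 difference 0.27, limma adjusted p = 0.335).

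The ratio of Slit2 to Robo2 CPM was 0.849, 0.852 and 0.897 in controls and 1.501, 1.601 and 1.523 in mutants, with no overlap. The mean ratio was 0.866 ± 0.0269 in controls and 1.54 ± 0.0521 in mutants (SD, n = 3), higher in 3 of 3 litters. This ratio was chosen after both genes' values were seen and is given as a description, without a test. The progenitor marker sum, of which Capn6 carried much, was also lower in mutants, and its part in the Robo2 difference was not tested.

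Among the class 3 semaphorins, the secreted ligands of neuropilins, 4 of 7 rose. Sema3c, the most abundant semaphorin per kilobase of transcript, was 224, 170 and 223 CPM in controls and 315, 247 and 273 CPM in mutants. Its groups did not overlap, and the log2 difference was 0.44 (SE 0.05, 95% interval 0.32 to 0.56; limma adjusted p = 0.00332). Sema3a, which repels growing vessels as well as axons, was 72.8, 53.0 and 51.1 CPM in controls and 96.1, 63.8 and 79.6 CPM in mutants. The groups overlapped because litter 1 was high in both, and within litters the mutant was higher in all 3. The log2 difference was 0.43 (SE 0.07; limma adjusted p = 0.0102). Sema3d had the same litter pattern, at 71.3, 50.5 and 53.5 CPM in controls and 95.6, 65.6 and 77.3 CPM in mutants, and a log2 difference of 0.44 (SE 0.05; limma adjusted p = 0.00332). Sema3g, an endothelial semaphorin, rose from 35.2, 33.0 and 37.1 CPM to 40.9, 40.4 and 44.9 CPM. Its groups were separate, with a log2 difference of 0.26 (limma adjusted p = 0.0286), and this call was lost without litter 1 (adjusted p = 0.127) or litter 2 (adjusted p = 0.065). The other three were not called. Sema3f was 82.5, 113 and 100.1 CPM in controls and 85.6, 103 and 105 CPM in mutants, with an interval of -0.13 to 0.12 on the log2 scale. Sema3b had a log2 difference of 0.02 and Sema3e one of 0.15.

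Membrane-bound semaphorins were mixed. Sema5a, which carries thrombospondin repeats, was 131, 116 and 157 CPM in controls and 184, 167 and 207 CPM in mutants, separate in every library. The log2 difference was 0.47 (SE 0.04, 95% interval 0.37 to 0.57; limma adjusted p = 0.0015). Its class partner Sema5b was 10.2 to 12.02 CPM in controls and 9.73 to 14.5 CPM in mutants and was not called (limma adjusted p = 0.528). In class 6, whose members bind A-type plexins, Sema6d rose from 35.0, 31.2 and 33.5 CPM to 41.0, 39.0 and 42.6 CPM (log2 difference 0.30, limma adjusted p = 0.0207). Sema6a rose from 43.2, 38.1 and 40.9 CPM to 48.0, 46.0 and 52.9 CPM (log2 difference 0.26, limma adjusted p = 0.0345). Both were separate between groups, and both calls were lost without litter 1, at adjusted p values of 0.0867 and 0.0879. Sema6a also lost its call without litter 3 (adjusted p = 0.0557). Sema6b had a log2 difference of 0.32 that did not pass (5.39, 7.36 and 7.36 CPM against 6.46, 10.2 and 9.06 CPM, limma adjusted p = 0.074), and that of Sema6c was 0.03.

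Class 4 gave one call in each direction. Sema4d, a ligand of plexin-B1, was 40.6, 48.4 and 54.9 CPM in controls and 50.9, 62.4 and 66.0 CPM in mutants. Litter 1 was low in both groups, which overlapped, and the paired log2 difference was 0.32 (SE 0.05; limma adjusted p = 0.0111). Without litter 1 its adjusted p was 0.0781. Sema4g (ENSMUSG00000025207) was 52.2, 63.5 and 49.6 CPM in controls and 38.2, 43.8 and 44.2 CPM in mutants. Every mutant lay below every control, and the log2 difference was -0.38 (SE 0.08, 95% interval -0.55 to -0.21; limma adjusted p = 0.0196). That call was lost without litter 1 (adjusted p = 0.107). Sema4f, at 1.07 to 2.04 CPM in controls and 1.70 to 2.57 CPM in mutants, had a log2 difference of 0.32 with too wide an interval to pass (limma adjusted p = 0.183). Sema4a, Sema4b, Sema4c and the single class 7 member Sema7a, with log2 differences of -0.02 to 0.19, were not called.

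**Figure D2:**
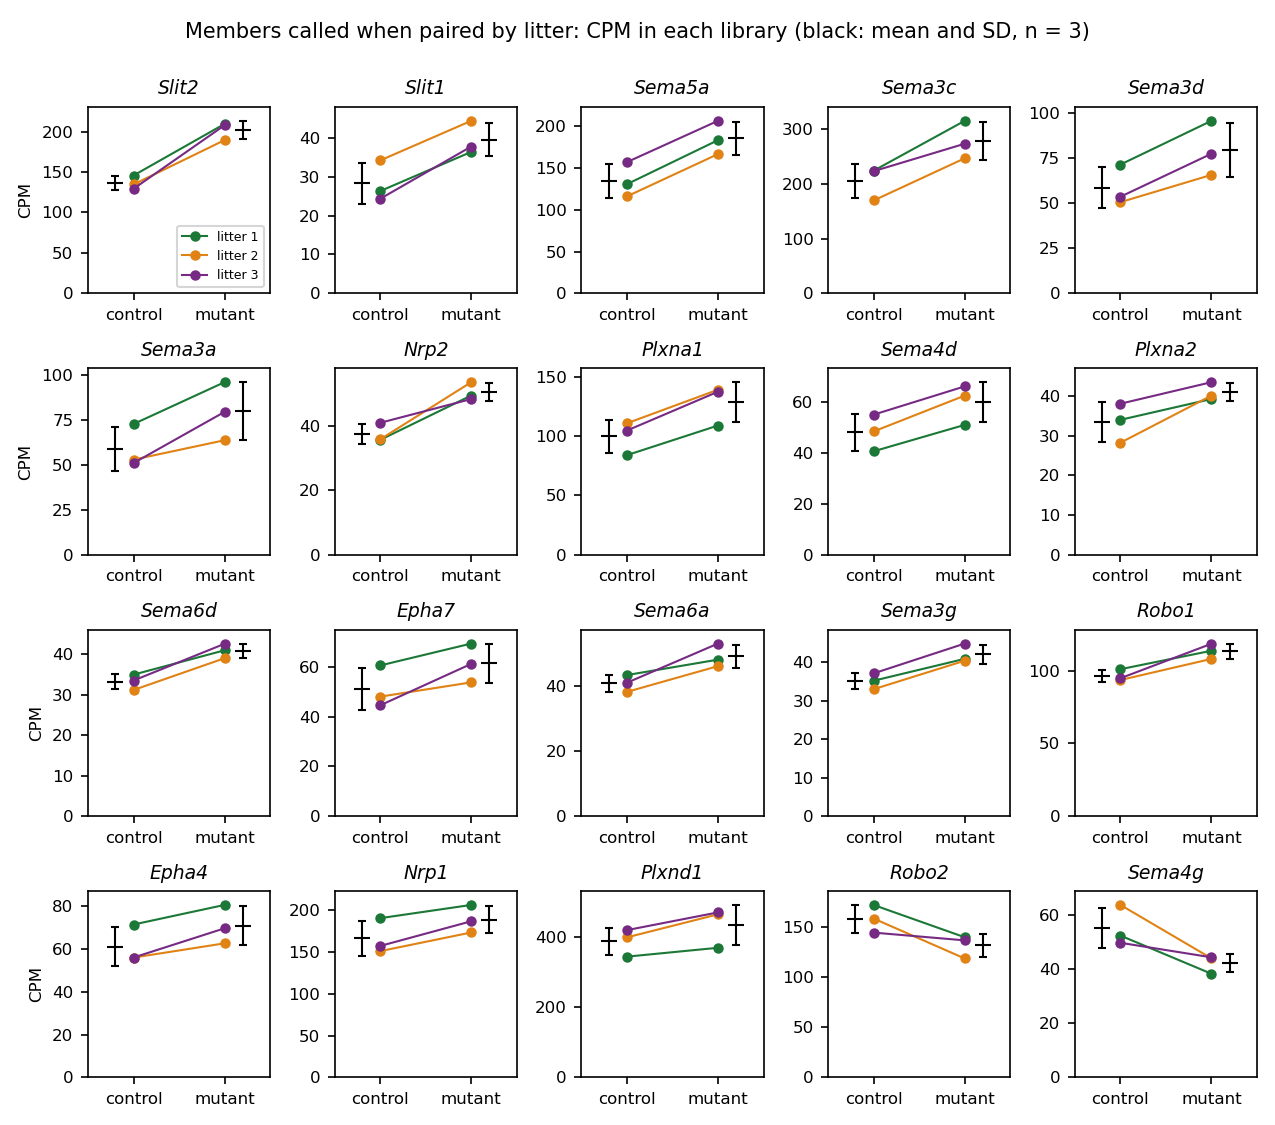
CPM in control and mutant kidneys for each of the 20 called members, one panel a gene; colours and lines join the 2 libraries of a litter, and black marks give the mean and SD of 3 libraries. Panels such as Slit2, Nrp2 and Robo2 show groups that do not overlap, and panels such as Sema3a and Plxnd1 show overlapping groups whose lines all rise. Vertical axes start at 0 and differ between panels.

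Both neuropilins, the ligand-binding receptors for class 3 semaphorins, rose. Nrp2 was 35.8, 35.9 and 41.1 CPM in controls and 49.6, 53.8 and 48.5 CPM in mutants. Its groups were separate, with means of 37.6 ± 3.02 and 50.6 ± 2.77 CPM (SD, n = 3) and a log2 difference of 0.43 (SE 0.07; limma adjusted p = 0.0117). The Nrp1 row was 190, 151 and 157 CPM in controls and 206, 173 and 186 CPM in mutants. The groups overlapped, and the paired log2 difference was 0.19 (SE 0.04; limma adjusted p = 0.0329). Without litter 1 the adjusted p was 0.0694 for Nrp2 and 0.119 for Nrp1, and without litter 2 that of Nrp1 was 0.054. Endothelial markers, the cell type in which Nrp1 is best known, rose in sum in the same libraries, and their part in this result was not tested.

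All 8 plexins, the signalling receptors for semaphorins, had a positive estimate, and 3 were called (37.5%, against 7.93% of all rows called higher). Plexin transcripts are long, with a median of 7975.5 bases, and 27.7% of all rows of at least 6000 bases were called higher. After the length and GC correction 0 of the 8 were called. Their median was then 0.06, with negative estimates only for Plxnb1 and Plxna3. Plxna1 was 84.0, 111 and 105 CPM in controls and 109, 139 and 137 CPM in mutants. Litter 1 was low in both groups, and the paired log2 difference was 0.36 (SE 0.04, 95% interval 0.26 to 0.46; limma adjusted p = 0.00332). Plxna2 rose from 34.0, 28.2 and 38.1 CPM to 39.3, 40.1 and 43.5 CPM (log2 difference 0.30, SE 0.08; limma adjusted p = 0.0412), with groups that did not overlap. Its call was lost without litter 1 (adjusted p = 0.108) or litter 2 (adjusted p = 0.145). Plxnd1, the endothelial receptor of Sema3e, was abundant at 345, 399.96 and 421 CPM in controls and 370.2, 466 and 471 CPM in mutants. The rise was small, at 0.16 (SE 0.04; limma adjusted p = 0.0361), and was not called without litter 1 (adjusted p = 0.148) or litter 2 (adjusted p = 0.122).

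The B-type plexins, which class 4 semaphorins bind, did not pass. Plxnb2, the most abundant member per kilobase, was 457, 549 and 554 CPM in controls and 497, 614 and 597 CPM in mutants. The mutant was higher in each litter, by 0.13 on the log2 scale (SE 0.04; limma adjusted p = 0.0512, and 0.0206 without litter 3). Plxnb1 was 170, 192 and 173 CPM in controls and 177, 204 and 204 CPM in mutants (log2 difference 0.13, limma adjusted p = 0.124). Plxna4, at 7.49 to 8.47 CPM in controls and 9.21 to 11.03 CPM in mutants, and Plxnc1, at 14.3 to 16.3 CPM and 17.3 to 20.8 CPM, had separate groups and larger estimates of 0.32 and 0.26. Their limma adjusted p values were 0.0741 and 0.134. The fourth A-type plexin, Plxna3, had a log2 difference of 0.13 (limma adjusted p = 0.243).

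Of the 18 contact-dependent guidance genes, 2 were called higher and 0 lower (11.1% higher), which is near the 7.93% of all rows called higher. None had groups that did not overlap, against 10.2% of all rows with the mutant higher and 7.12% with it lower. Of the 10 Eph receptors, a family of receptor tyrosine kinases, Epha4 and Epha7 rose. Epha7 was 60.6, 48.1 and 44.6 CPM in controls and 69.5, 53.8 and 61.3 CPM in mutants, a log2 difference of 0.27 (SE 0.07; limma adjusted p = 0.0403). Epha4 was 71.2, 55.8 and 55.9 CPM in controls and 80.4, 62.5 and 69.5 CPM in mutants, a log2 difference of 0.22 (SE 0.05; limma adjusted p = 0.0402). For both, litter 1 was high in each group. Both calls were lost without litter 1, at adjusted p values of 0.163 for Epha4 and 0.12 for Epha7, and without litter 3, at 0.0685 and 0.0648. Epha3 was 30.6, 21.0 and 33.0 CPM in controls and 37.0, 26.7 and 33.7 CPM in mutants (log2 difference 0.21, limma adjusted p = 0.111, and 0.0203 without litter 3).

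EphB4, the venous receptor, and its ligand ephrin-B2, the arterial partner, did not pass. Ephb4 was 155, 193 and 189 CPM in controls and 167, 226 and 200.3 CPM in mutants (log2 difference 0.14, limma adjusted p = 0.0824, and 0.0292 without litter 3). Efnb2 was 106, 108 and 115 CPM in controls and 109.6, 108 and 133 CPM in mutants, with a log2 difference of 0.08 and an interval of -0.03 to 0.20. Its litter 2 pair was almost equal. Efnb1, the most abundant ephrin per kilobase, was 101, 119.8 and 127 CPM in controls and 115, 146 and 131 CPM in mutants (log2 difference 0.18, limma adjusted p = 0.0733). The products of ephrin-A genes are held by a lipid anchor, and those of ephrin-B genes span the membrane. The lowest estimate among the ephrins was that of Efna1, at 34.7, 37.0 and 40.6 CPM in controls and 32.9, 34.3 and 37.1 CPM in mutants, lower in each litter but not called (log2 difference -0.10, interval -0.24 to 0.03; limma adjusted p = 0.282). The remaining Eph receptors, Epha1, Epha2, Ephb1, Ephb2, Ephb3 and Ephb6, had log2 differences from -0.07 to 0.15, and none passed.

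Levels between genes can be compared only per length. On the scale of mean CPM per kilobase of transcript over 6 libraries, the most abundant members were Plxnb2 at 83.8, Plxnd1 at 59.7, Nrp1 at 49.2, Sema3c at 44.1 and Ephb4 at 43.4. Slit2 and Robo2 stood close together at 17.0 and 16.9, with Robo1 at 13.9. The lowest were Plxna4 at 0.708, Sema4f at 0.451 and Robo3 at 0.317. Summed by family on this scale, semaphorins went from 206 ± 4.97 in controls to 238 ± 5.45 in mutants and Slits from 25.0 ± 0.517 to 34.6 ± 1.66 (SD, n = 3). The Robo sum was 39.3 ± 2.30 in controls and 39.5 ± 0.752 in mutants and was higher in the mutant in 1 of 3 litters, since Robo1 and Robo2 moved in opposite directions. Plexins went from 183 ± 16.2 to 205 ± 21.7, neuropilins from 51.7 ± 5.72 to 59.9 ± 4.32, ephrins from 111 ± 8.13 to 116 ± 9.02 and Eph receptors from 99.3 ± 4.08 to 109.7 ± 7.08. Those sums were higher in the mutant of each litter. For Slits, semaphorins and Eph receptors, every mutant sum lay above every control sum. These sums depend most on their abundant members and carry no test.

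**Figure D3:**
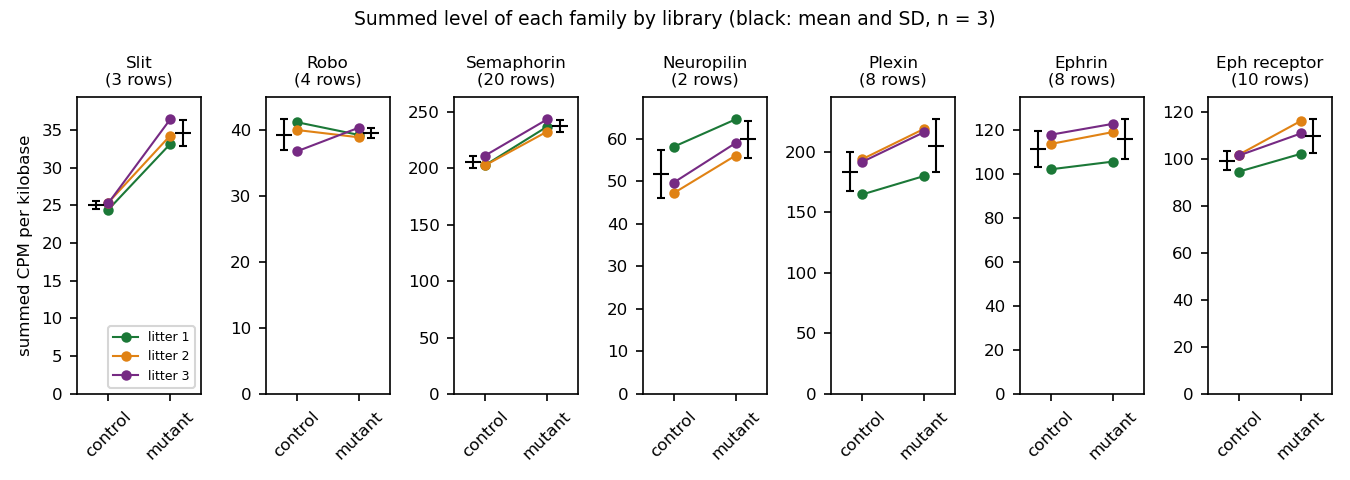
Summed level of each family in CPM per kilobase, one panel a family; coloured points and lines join control and mutant of a litter, and black marks give the mean and SD of 3 libraries. The Slit, semaphorin and Eph receptor sums are higher in all mutants than in any control, while the Robo lines cross; vertical axes start at 0 and differ between panels.

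Guidance genes tend to be long, and transcript length moved with the difference over the whole table. The median member transcript was 4793 bases, against 3193 bases for all rows tested, and 6584 bases for the 20 called members. Across 13515 rows with a length, Spearman's rank correlation between length and the paired log2 difference was 0.440, and across the 55 members it was 0.529. Both are descriptions across genes of the same libraries. Of all rows with transcripts of at least 6000 bases, 27.7% were called higher, and of the 20 members of that length 12 were. Between 4000 and 6000 bases the values were 10.1% of all rows and 5 of 18 members. From 2000 to 4000 bases, 3.97% of all rows and 1 of 15 members were called higher. The 2 shorter members were not called, and 1.57% of all rows of that length were called higher and 8.73% lower. The median log2 difference at 6000 bases or more was 0.15 for all rows and 0.26 for members.

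**Figure D4:**
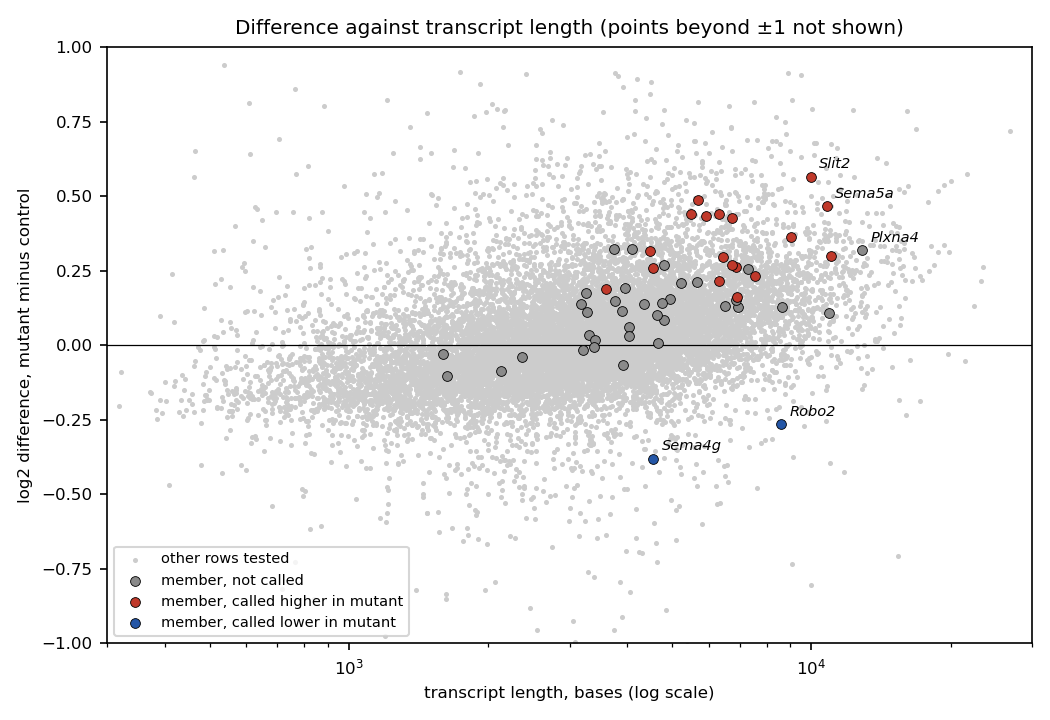
Paired log2 difference against transcript length in bases on a log axis, with all rows tested in grey and the 55 members coloured by call. Differences rise with length in all rows (Spearman's rank correlation 0.440) and in members (0.529); Robo2 lies below 0 among the long transcripts.

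After each library was corrected for a smooth trend on length and GC content, this correlation was 0.00983 over all rows and 0.192 over members. In that fit, with litter as a block, 7 members were called higher and 2 lower, against 2.96% and 2.77% of all rows. The members' median was then 0.08, and that of all rows -0.02. All 7 called higher were ligands, namely Slit2 at 0.38 (limma adjusted p = 0.0037), Slit1 at 0.38 (0.0221), Sema3c at 0.35 (0.0165), Sema3d at 0.34 (0.00745), Sema3a at 0.34 (0.017), Sema5a at 0.27 (0.017) and Sema4d at 0.23 (0.0374). None of the 24 receptors was called higher. Those nearest were Plxna1 at 0.19 (limma adjusted p = 0.0523) and Nrp2 at 0.27 (0.0604). Before the correction, 10 of 31 ligands and 8 of 24 receptors were called higher. Receptor transcripts were longer, with a median of 6610 bases against 4086 for ligands. After the correction the median log2 difference was 0.11 for ligands and 0.08 for receptors. The difference between ligands and receptors was not itself tested.

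The other receptor and semaphorin calls were lost by wider margins. Robo1 was at 0.06 (limma adjusted p = 0.438), Plxnd1 at 0.04 (0.504) and Plxna2 at 0.08 (0.549). The estimate was 0.13 for Nrp1 (0.108), 0.09 for Epha4 (0.29), 0.15 for Epha7 (0.15), 0.18 for Sema3g (0.1), 0.11 for Sema6a (0.287) and 0.15 for Sema6d (0.151). The 2 lower calls moved further from 0, with Robo2 at -0.42 (limma adjusted p = 0.00539) and Sema4g at -0.45 (0.0172). Before the correction, Spearman's rank correlation of length with a library's deviation from each row's mean was -0.10, -0.45 and -0.12 in controls. In mutants it was 0.23, -0.02 and 0.48, above the control of each litter but unequal within a genotype. The correction removes any real change that goes with length as well as a technical one, and these cannot be told apart here.

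**Figure D5:**
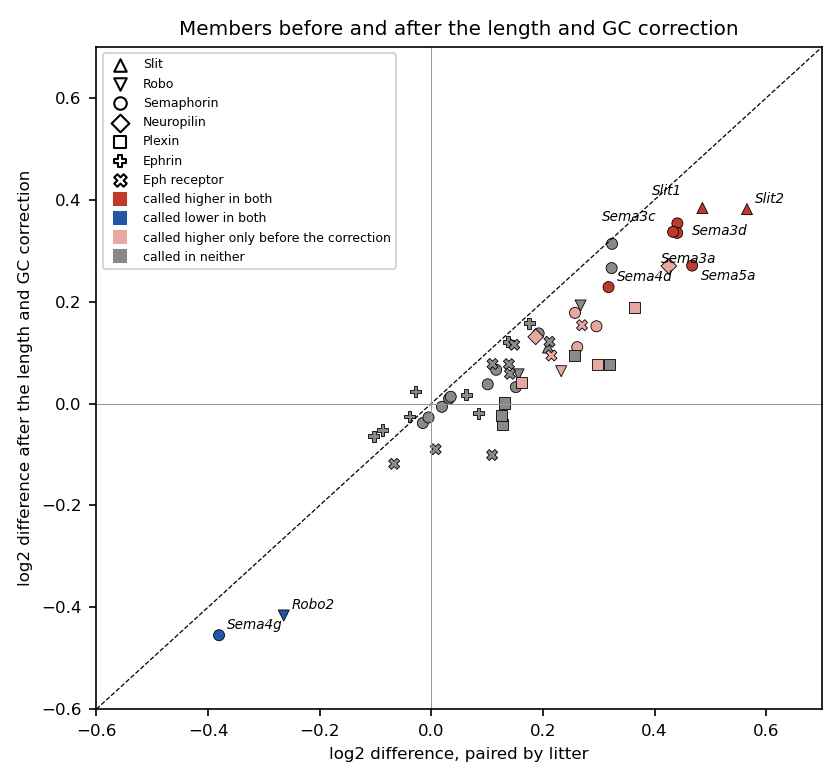
Log2 difference of each member before (horizontal) and after (vertical) correction for transcript length and GC content, both paired by litter; shapes give the family and colours the calls, and the dashed line marks equal values. The 7 members called higher in both fits are Slits and semaphorins, the neuropilin, plexin, Robo1 and Eph points called only before the correction lie below the line, and Robo2 and Sema4g are lower in both.

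Matches to the cluster's seeds were counted in guidance genes and in all rows. The 3′ UTR of each gene's longest coding transcript in GENCODE M21 was searched on the transcript strand for GCACTTT (miR-17 and miR-20a), GCACCTT (miR-18a), TTTGCAC (miR-19) and GTGCAAT (miR-92a). A TTTGCAC match can overlap a GCACTTT or GCACCTT match by 4 bases. At least 1 match was found in 22 of 55 members (40%) and in 4428 of 13143 rows (33.7%). Members had longer 3′ UTRs, with a median of 1464 bases against 1178, and per kilobase the values were 0.328 and 0.308 matches. By motif, the shares were 20% of members against 14.6% of rows for miR-17 and miR-20a, 16.4% against 9.496% for miR-18a, 14.5% against 13.2% for miR-19 and 7.27% against 7.65% for miR-92a.

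Members with and without a match had similar medians. The median log2 difference was 0.18 for members with a match and 0.15 for those without, and 0.08 for both after the length and GC correction. Over all rows it was 0.07 with a match and -0.01 without, and after the length and GC correction -4.1e-05 and -0.023. Matches were found in 8 of 18 members that rose (44.4%), in both that fell, and in 12 of 35 not called (34.3%). Slit2 and Slit1, the members with the largest rises, held none in this window, nor did Nrp1, Nrp2, Sema3d, Sema3g, Sema4d, Sema6d, Plxna2 and Plxnd1. Sema5a held 5, and Plxna1, Epha7 and Ephb2 held 3 each, of which Ephb2 was not called. A match is a run of letters and not a shown binding site.

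Stretches around some of the matches are shown, for members that rose and for both that fell. Each is 30 bases, 5′ to 3′ on the transcript strand, with the seed match in capitals.
Sema5a, miR-17 and miR-20a: caaataaccagGCACTTTaatctgagagat
Sema3c, miR-17 and miR-20a: tacctagaaatGCACTTTtcctccaaaatg
Plxna1, miR-17 and miR-20a: tttgttcgcaaGCACTTTagcatttctgtt
Epha4, miR-17 and miR-20a: acctcatccatGCACTTTaattgaagaact
Sema3a, miR-19: agagaggacagTTTGCACgaagaagaatgt
Robo1, miR-92a: gaaattgttcaGTGCAATcagaatggacaa
Robo2, miR-19: tatgtttaaatTTTGCACtgcgattttatt
Robo2, miR-92a: aacatttaacaGTGCAATgaacaatttctt
Sema4g, miR-17 and miR-20a: acctcaccaggGCACTTTcaaggtccaagg
Each motif shown stands in transcripts that were higher and in transcripts that were lower in mutant kidneys. Of all rows, 33.7% held a match, and whether any match acts was not tested.

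Genes that act downstream of these receptors or in other guidance systems were taken from a list of 60. Of these 57 were tested, and 11 were called higher, 0 lower and 46 in neither direction (19.3% higher, against 7.93% of all rows). Their median log2 difference was 0.09, with 17 negative estimates. After the length and GC correction 1 of the 57 was called, higher, against 2.96% of all rows. Flrt2, a membrane protein that binds Unc5 receptors and latrophilins, was 109.8, 89.4 and 99.8 CPM in controls and 147, 109.1 and 142 CPM in mutants. The log2 difference was 0.40 (SE 0.05; limma adjusted p = 0.00436), and it was the only one of the 11 also called after the length and GC correction (0.28, adjusted p = 0.0138). Neo1, the netrin and RGM receptor neogenin, was 179, 192 and 175 CPM in controls and 214, 223 and 209 CPM in mutants, with separate groups (log2 difference 0.24, limma adjusted p = 0.00967).

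Several of the others link receptors to small GTPases. Arhgef12, an exchange factor that binds B-type plexins, had a log2 difference of 0.28 (limma adjusted p = 0.00577), and Arhgef11 one of 0.23 (0.0298). Tiam1 at 0.29 (0.0231), Kalrn at 0.27 (0.017), and Farp1 at 0.19 (0.0216) also encode exchange factors, and Srgap3 at 0.26 (0.0341) encodes a GTPase-activating protein named for its binding to Robo. Mical3 at 0.28 (0.0203, in a row of 2 joined identifiers), Dpysl3 at 0.21 (0.0386), a relative of the semaphorin effector CRMP2, and Flrt1 at 0.50 (0.0342) completed the 11. The GTPases themselves, Rhoa, Rac1 and Cdc42, had log2 differences of -0.02, -0.03 and -0.00 and were not called. Without the litter block 0 of the 57 were called by limma.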

How the data were processed

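The authors deposited CPM values, per the file headers; per the submitters' processing notes, TopHat2 2.0.9, Picard, SAMtools and NCBIM37 were used. The counting program, annotation and strand setting are not given in the sources used here, so overlapping antisense genes are not resolved. Per the labels' protocols, RNA came from frozen kidneys by Trizol and a TruSeq kit. Of 13965 rows, 526 join several identifiers, and 13693 had a symbol in GENCODE M21 (GRCm38, another build than the authors', used for names, transcript lengths and 3′ UTRs). Every value was a whole number of reads within 0.001.

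From these values, limma 3.58.1 (R 4.3.3) was run with the mean-variance trend on log2(CPM + 0.5), for rows that reached 1 CPM in 3 or more libraries, with litter and genotype as terms, and checked on simulated data. The simulation set litter effects larger than the added noise between libraries and held no length trend. It therefore cannot check the gain from pairing or the effect of length. Log2 differences on this scale understate the change of low genes. Litters are named by the labels; deviations from group means correlated at 0.619, 0.446 and 0.312 within litters and -0.514 to 0.172 between them. Lengths are those of the longest coding transcript with a 3′ UTR, and the correction subtracted a spline with 4 degrees of freedom from each library (98.2% of rows had a length). The 17 alternatives changed the block, scaling, pseudocount, filter, correction or libraries. Genes named were all called members, the 5 most abundant per kilobase, the 6 uncalled with the largest differences, and 16 fixed kidney and vessel genes; others are given to account for every member. The members and lists were chosen with earlier results of these data known.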

Additional observations from a re-analysis of the deposited data

How the results depend on the processing

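Without the replicate block, members called fell from 18 higher and 2 lower to 1 and 0, calls in the pathway list from 11 to 0, and calls over all rows from 1574 to 77. With the length and GC correction and the block, 7 members were called higher and 2 lower, the members' median was 0.077, 1 pathway gene was called and 789 rows were called in all, 407 higher and 382 lower. Among the 30 named genes, that correction turned Plxnb1 to -0.042 and Efnb2 to -0.019. Of the other members, it turned Ephb2 to -0.10, Ephb1 to -0.09, Plxna3 to -0.02, Sema3b to -0.01 and Efna4 to 0.02. Efnb2 was also -0.010 without mutant replicate 3 and without the block. None of these was called, and the cause was not tested. Leaving out a litter or a library, members called ranged from 0 to 19 higher and 0 to 2 lower, their median from 0.11 to 0.23, pathway calls from 0 to 15 and calls over all rows from 23 to 2295. Those calls were 336, 1412 and 2295 without litters 1, 2 and 3 (block kept), 103, 28 and 46 without each control, and 69, 36 and 23 without each mutant. Fits without a single library had no block and assume that the libraries left vary alike.

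Scaling by TMM called 17 members higher and 2 lower, and by median ratios 15 and 2, losing Epha4 in both and Epha7 and Plxna2 in the latter; over all rows the split was 927 higher and 562 lower, and 909 and 593, against 1091 and 483. Pseudocounts of 0.1 and 1, and no filter, left the calls of all 30 named genes in place, while a minimum of 5 CPM also called Plxnb2 (adjusted p = 0.0437, limma). The 2 planned count-based tests were not run, because the table has too few low values to check the recovered reads by the rule set for such tests.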
